A study of Nasonia vitripennis with 9 samples.

Results

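The genes studied here encode subunits of respiratory complexes II, III, IV and V in the parasitoid wasp *Nasonia vitripennis*. They were chosen by symbol, as every gene row whose name begins with Sdh (complex II, 4 genes), Uqcr (complex III, 7 genes), Cox (complex IV, 7 genes) or Atp5 (complex V, 13 genes), with Cox6c and Cox7a1 left out. This gave 31 of 15418 genes, and all 31 passed the filter on low counts. Cox6c and Cox7a1 had been set apart as low-level oxidase subunits, so the filter result and the complex IV levels do not cover them. By name, 30 of the 31 genes are subunits, and Cox15 is an assembly factor that makes haem a for complex IV. A further 14496 genes are named by a locus number only, so subunits without a symbol, and the subunits encoded in mitochondrial DNA, were not analysed here.

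All groups were whole males of the laboratory strain AsymCX, cured of Wolbachia and reared at 25 °C on Calliphora hosts. The dsGFP group received double-stranded RNA against green fluorescent protein, a sequence the wasp does not carry, at 4 µg/µl in water mixed with red food dye, as second instar larvae about 3 days after egg laying. The water group received water and dye at the same stage, and the uninjected group received nothing; the labels give no separate age for it. Larvae were laid on 1% agarose before injection and put back on a host afterwards, and the labels do not say whether uninjected larvae were handled in this way. Injected animals were frozen 5 to 6 days later at the stage the protocol calls white pupae, although the tissue label says larvae and no stage marker was examined. Each group had 3 libraries, each from a pool of 5 individuals, and nothing in the labels says that the pools came from separate cultures, so p-values measure the spread between these pools, which may be technical. Whole animals were used, so fewer cells of a tissue and less RNA per cell cannot be told apart.

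Oxidative phosphorylation passes electrons from succinate (complex II) through ubiquinol and cytochrome c (complex III) to oxygen (complex IV). Complexes III and IV pump protons out of the mitochondrial matrix, and complex V, the ATP synthase, lets them back through a rotating ring and makes ATP. Complexes III to V combine many nuclear-encoded subunits with a few encoded in mitochondrial DNA, whereas complex II is wholly nuclear-encoded. In insects the system is most abundant in flight muscle, which forms during the pupal stage.

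Gene totals ranged from 33885222 to 46080606 read pairs, and all 6 injected libraries had smaller totals than the 3 uninjected ones. Levels are given as CPM, the read pairs of a gene scaled to a common library total with TMM factors, and the scaling factors ranged from 0.896 in dsGFP 2 to 1.13 in uninjected 3. CPM are not per length, so the order of genes by level need not be their order by transcript number. The 31 genes took 0.470 to 0.703% of all gene counts in a library. Tissue markers were present in every library. The 3 muscle genes found by symbol summed to 772 to 931 CPM, most of it from the tropomyosin gene Tm1, and 17 nervous system genes to 221 to 394 CPM. The 38 cuticle genes ranged far more widely, from 305 CPM in uninjected 3 to 38232 CPM in dsGFP 2, with 1 of them at 0 in every library.

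None of the 31 genes differed between any groups by edgeR's quasi-likelihood test with Benjamini-Hochberg adjustment. Most had slightly lower values after injection: 27 of 31 were lower with dsGFP than with water, 24 of 31 lower with water than uninjected, and 30 of 31 lower with dsGFP than uninjected. Over all 11665 genes tested the lower shares were 48.1%, 49.4% and 48.8%. The median log2 fold changes of the 31 genes were -0.08, -0.09 and -0.16 in these comparisons, and those of all genes 0.01, 0.00 and 0.01. The water and uninjected libraries serve in more than 1 comparison, so these values are not independent of each other. The 31 genes also moved together between pools, with 27 of 31 highest in uninjected 3 within its group and 25 of 31 lowest in dsGFP 2. They are therefore not separate observations of a group difference, and 1 pool can set the sign of most of them.

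The test called 0 of 31 genes in each comparison. The background was 0% of all genes called for dsGFP against water (710 at an unadjusted p under 0.05 and 6 by DESeq2), 0.00857% for water against uninjected and 4.55% for dsGFP against uninjected. DESeq2 also called 0 of 31 in each. At an unadjusted p under 0.05 there were 0 genes for dsGFP against water, 2 for water against uninjected and 5 for dsGFP against uninjected, or 0%, 6.45% and 16.1% of the 31. The shares of all genes were 6.09%, 5.68% and 18.7%, close to those of the 31 genes in both comparisons with uninjected pupae. An F test for any difference among the 3 groups called 0 of 31 (2.04% of all genes), with 0 at an unadjusted p under 0.05, 0 by DESeq2 and a smallest adjusted p of 0.442. For dsGFP against water 31 of 31 genes had a 95% confidence interval inside 1.5-fold either way, compared with 64.3% of all genes. Against uninjected pupae 30 of 31 genes had one with water (66.9% of all genes) and 29 of 31 with dsGFP (57.3% of all genes; 19 of 31 without uninjected 2). All 31 intervals lay within 2-fold in each comparison. The exceptions to the narrower bound were Atp5e in both comparisons and Atp5j with dsGFP. For dsGFP against water, 25 of 31 genes lay inside that bound with the gene total alone as scaling and 26 of 31 without dsGFP 3. The shares of all genes are not matched to the 31 genes in level.

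**Figure D1:**
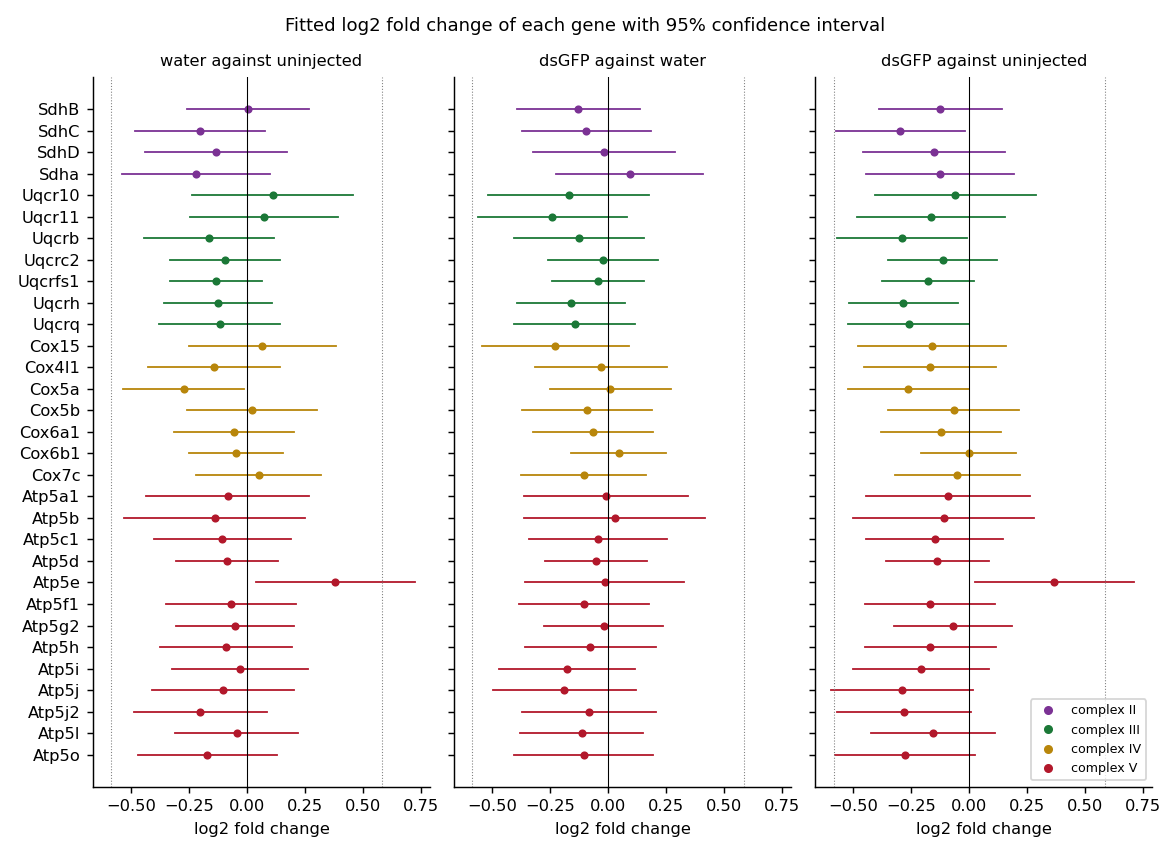
Fitted log2 fold change (horizontal axis) of each of the 31 genes (vertical axis, coloured by complex) in 3 comparisons, with points for the estimate, bars for the 95% confidence interval and dotted lines at 1.5-fold. In the dsGFP against uninjected panel 30 of 31 points lie below 0 and the point of Atp5e lies above it, at 0.37.

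Complex II oxidises succinate and belongs to both the citric acid cycle and the respiratory chain. Sdha is its flavoprotein, SdhB carries the iron-sulfur clusters, and SdhC and SdhD anchor the enzyme in the inner membrane. SdhC had 44.2, 44.5 and 55.0 CPM in the uninjected pools, 39.4, 41.8 and 43.8 CPM with water and 43.3, 33.2 and 40.5 CPM with dsGFP. By this count, which leaves out pairs shared with a neighbouring gene, each injected pool was below each uninjected pool, and the injected groups overlapped. With those pairs counted, dsGFP 1 (53.3 CPM) lay above uninjected 1 (52.9 CPM), and the water pools stayed below the uninjected pools. The log2 fold change of SdhC was -0.30 for dsGFP against uninjected (SE 0.13, adjusted p = 0.242) and -0.20 for water against uninjected (SE 0.13, adjusted p = 0.999). Without uninjected 3 these were -0.20 and -0.11, and without dsGFP 2 the first was -0.19.

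SdhB, with the highest level in this complex, had 135, 129 and 157 CPM uninjected, 135, 142 and 145 CPM with water and 138, 110 and 138 CPM with dsGFP, and its groups overlapped throughout. SdhD had group means of 94.5 ± 16.9 CPM uninjected, 86.1 ± 6.77 CPM with water and 85.0 ± 9.56 CPM with dsGFP (SD, n = 3 each). Sdha had 124, 137 and 95.9 CPM uninjected, 110, 109 and 87.1 CPM with water and 99.8, 116 and 111 CPM with dsGFP. In Sdha, unlike the other 3 genes, the third uninjected pool and the third water pool were the lowest of their groups.

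Complex III hands electrons from ubiquinol to cytochrome c. Uqcrfs1 is its Rieske iron-sulfur protein, Uqcrc2 is a core protein, and Uqcrb, Uqcrq, Uqcrh, Uqcr10 and Uqcr11 are small accessory subunits, of which Uqcrh, the hinge protein, helps cytochrome c dock. All 7 had lower mean values with dsGFP than with water and than uninjected, with medians of -0.14 and -0.18 on the log2 scale. Uqcrh had 72.0, 74.7 and 88.4 CPM uninjected, 68.3, 70.5 and 77.0 CPM with water and 66.6, 60.5 and 66.1 CPM with dsGFP. The dsGFP pools lay below every other pool. Its difference between dsGFP and uninjected had the smallest p of the 31 genes and did not pass (log2 fold change -0.28, SE 0.11, adjusted p = 0.183); against water it was -0.16 (SE 0.11, adjusted p = 0.926).

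Uqcrc2, with the highest level in complex III, had 137, 135 and 163 CPM uninjected, 133, 130 and 144 CPM with water and 136, 124 and 141 CPM with dsGFP, and all groups overlapped. Uqcr11 had 40.7, 38.6 and 50.5 CPM uninjected, 39.8, 44.5 and 52.5 CPM with water and 43.5, 33.4 and 38.8 CPM with dsGFP. Its log2 fold change of -0.24 for dsGFP against water (SE 0.15, adjusted p = 0.915) had the smallest p in that comparison, and the dsGFP and water pools overlapped. It was -0.13 without water 3 and -0.15 without dsGFP 2. Uqcr10 had the lowest unstranded level in the complex, a count that leaves out pairs shared with a neighbouring gene. With those pairs its mean over the 9 libraries was 54.7 CPM, above the 40.6 CPM of Uqcr11. Unstranded, Uqcr10 had 22.5, 25.4 and 29.95 CPM uninjected, 29.2, 26.3 and 28.7 CPM with water and 25.8, 19.4 and 29.6 CPM with dsGFP, and its groups overlapped. Uqcrfs1 varied little, with 111 ± 4.69 CPM uninjected, 102 ± 5.35 CPM with water and 98.5 ± 2.78 CPM with dsGFP (SD, n = 3 each). Uqcrb, Uqcrq and Uqcrfs1 shared with Uqcrh a lack of overlap between dsGFP and uninjected pools. So 4 of the 7 complex III genes were separated in this way, where 13.1% of all genes were. The margin was small for Uqcrb, with 96.9 CPM in dsGFP 1 and 97.7 CPM in uninjected 1. It was also small for Uqcrq, with 82.1 and 82.4 CPM in the same pools.

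Complex IV, cytochrome c oxidase, reduces oxygen. Cox4I1, Cox5a, Cox5b, Cox6a1, Cox6b1 and Cox7c are nuclear-encoded subunits that surround the catalytic core. Cox6b1, which sits on the cytochrome c side, was the steadiest gene of the set, with 250, 236 and 255 CPM uninjected, 236, 235 and 245 CPM with water and 251, 245 and 244 CPM with dsGFP. Its highest library was 1.08 times its lowest, and its log2 fold change between dsGFP and uninjected was -0.0028 (95% confidence interval -0.21 to 0.20).

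Cox5a had 120, 127 and 153 CPM uninjected, 110, 108 and 113 CPM with water and 123, 99.1 and 112 CPM with dsGFP. Each water pool was below each uninjected pool, by a log2 fold change of -0.27 that did not pass (SE 0.12, adjusted p = 0.840) and was -0.18 without uninjected 3. Cox15 had 49.5, 46.0 and 62.6 CPM uninjected, 51.9, 57.2 and 56.6 CPM with water and 51.5, 38.4 and 51.6 CPM with dsGFP. The dsGFP pools were below the water pools, by -0.23 on the log2 scale (SE 0.14, adjusted p = 0.923), but overlapped the uninjected ones. Without dsGFP 2 the difference from water was -0.099. Cox4I1, Cox5b, Cox6a1 and Cox7c overlapped between groups in every comparison. Over the 7 genes the log2 fold change for dsGFP against uninjected ran from -0.26 in Cox5a to -0.0028 in Cox6b1.

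Complex V has a catalytic head, a stalk and a membrane part. Atp5a1 and Atp5b are the alpha and beta subunits of the head, Atp5c1, Atp5d and Atp5e the gamma, delta and epsilon subunits of the central stalk, and Atp5g2 a subunit of the proton-driven ring. Atp5o, Atp5f1, Atp5h and Atp5j belong to the peripheral stalk, and Atp5i, Atp5l and Atp5j2 are small membrane subunits. Atp5g2 had 1104, 1108 and 1081 CPM uninjected, 1083, 1035 and 1063 CPM with water and 972, 1066 and 1101 CPM with dsGFP. The groups overlapped, and the log2 fold change of dsGFP against uninjected was -0.07 (95% confidence interval -0.32 to 0.19).

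Atp5e was the only gene with higher values in both injected groups, at 14.4, 14.2 and 15.2 CPM uninjected, 17.9, 17.3 and 21.9 CPM with water and 19.2, 14.8 and 22.5 CPM with dsGFP. The water pools lay above the uninjected pools and the dsGFP pools overlapped them. Neither difference passed (log2 fold change 0.38, SE 0.16, adjusted p = 0.810 for water; 0.37, SE 0.16, adjusted p = 0.240 for dsGFP), and both depend on how reads shared with a neighbouring gene are counted. Without dsGFP 3 the second was 0.22. Among the other members, Atp5j (78.7 ± 9.91 CPM uninjected and 64.3 ± 10.3 CPM with dsGFP) and Atp5j2 (220 ± 34.7 and 181 ± 12.9 CPM; SD, n = 3 each) had dsGFP pools below all uninjected pools, and neither passed (adjusted p = 0.297 and 0.279). Atp5o had a similar log2 fold change, -0.28 (SE 0.14, adjusted p = 0.310), with 107, 117 and 153 CPM uninjected, 107, 110 and 117 CPM with water and 111, 92.1 and 108 CPM with dsGFP, and its groups overlapped. The other 9 genes of complex V lay between -0.21 (Atp5i) and -0.07 (Atp5g2) in that comparison, and their groups overlapped.

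Absence of overlap was read against all genes. For dsGFP below uninjected it held for 7 of 31 genes (SdhC, Uqcrb, Uqcrfs1, Uqcrh, Uqcrq, Atp5j and Atp5j2), where the background was 13.1%, and for dsGFP above uninjected for 0 of 31, where it was 8.79%. The margin was small for Uqcrb, Uqcrq and Atp5j, the last with 71.4 CPM in dsGFP 1 and 71.8 CPM in uninjected 1. For water below uninjected it held for 2 of 31 (SdhC and Cox5a; background 5.79%) and for water above uninjected for 1 of 31 (Atp5e; background 2.85%). For dsGFP below water it held for 2 of 31 (Uqcrh and Cox15; background 7.57%) and for dsGFP above water for 0 of 31 (background 4.77%). These counts leave out pairs shared with a neighbouring gene. With those pairs, SdhC overlapped between dsGFP and uninjected pools, and Atp5e between water and uninjected pools. The group means fell in the order uninjected, water, dsGFP for 20 of 31 genes and for 29.5% of all genes. Since the members moved together between pools, none of these counts is a count of separate observations.

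The complexes were compared by their summed CPM in each library, which is a description and carries no test. The sums are not per length, so their sizes do not rank the complexes by transcript number. Complex II summed to 387, 396 and 422 CPM uninjected, 363, 384 and 365 CPM with water and 374, 334 and 378 CPM with dsGFP. Complex III summed to 559, 575 and 685 CPM uninjected, 537, 558 and 602 CPM with water and 547, 491 and 543 CPM with dsGFP. In complex II every injected pool was below every uninjected pool, and in complex III the dsGFP pools were. The complex II margin was small, with water 2 at 384 CPM and uninjected 1 at 387 CPM. With pairs shared with a neighbouring gene counted, water 2 lay above uninjected 1 in complex II.

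Complex IV summed to 1027, 1046 and 1232 CPM uninjected, 1003, 1052 and 1128 CPM with water and 1110, 948 and 1027 CPM with dsGFP, with overlap between all groups. Complex V summed to 3738, 3834 and 3863 CPM uninjected, 3646, 3692 and 3425 CPM with water and 3371, 3468 and 3647 CPM with dsGFP, with every injected pool below every uninjected pool. By single genes, 0 of 13 had all water pools below all uninjected pools, and 2 of 13 had all dsGFP pools below them. The complex V sum rests most on Atp5g2, Atp5a1 and Atp5b, and Atp5a1 and Atp5b ran against most other members between pools. Its small spread and its separation therefore do not describe most genes of the complex. The mean ratio to complex V stayed alike over the groups. For complex II it was 0.105 ± 0.00337 uninjected, 0.103 ± 0.00366 with water and 0.104 ± 0.00738 with dsGFP (SD, n = 3 each). For complex III it was 0.159 ± 0.0159, 0.158 ± 0.0154 and 0.151 ± 0.0104, and for complex IV 0.289 ± 0.0261, 0.296 ± 0.0290 and 0.295 ± 0.0301 in the same order. These group differences are smaller than the spread between pools.

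**Figure D2:**
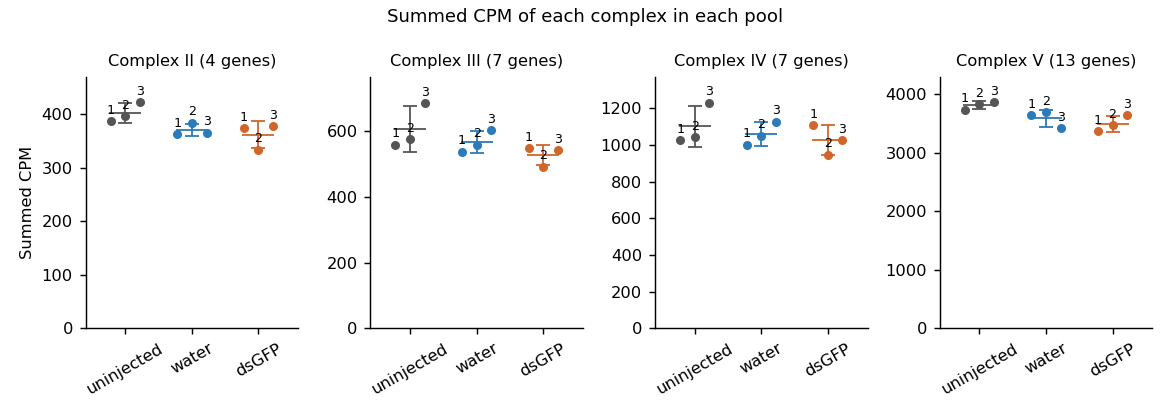
Summed CPM (vertical axis, from 0) of the genes of each complex in each pool (numbered points), with horizontal marks for the group mean and bars for the SD (n = 3). Complex V runs from 3371 to 3863 CPM, and in complexes III and IV uninjected 3 is the highest of the 9 libraries, at 685 and 1232 CPM.

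The median log2 fold changes per complex differed little beside the effect of leaving out 1 pool. For dsGFP against uninjected they were -0.14 in complex II, -0.18 in complex III, -0.12 in complex IV and -0.16 in complex V, and for dsGFP against water -0.06, -0.14, -0.07 and -0.08. For water against uninjected they were -0.17, -0.12, -0.05 and -0.09. Leaving out uninjected 3 moved the median of all 31 genes for dsGFP against uninjected from -0.16 to -0.07, with 26 of 31 lower, and that for water against uninjected from -0.09 to -0.02, with 18 of 31 lower. Relative to the median of all genes, the 31 genes then lay at -0.073 for dsGFP against uninjected, compared with -0.16 in the main fit. For water against uninjected they lay at -0.0011, compared with -0.093, so little difference from all genes remained there without this pool. Leaving out dsGFP 2 moved the median for dsGFP against water from -0.08 to -0.03, with 21 of 31 lower, and that for dsGFP against uninjected to -0.10. Without dsGFP 2 the medians of complexes II and IV for dsGFP against water turned to 0.027 and 0.034, and that of complex IV for dsGFP against uninjected was -0.028, as it was -0.032 without uninjected 3. Leaving out dsGFP 1 or water 1 moved the median for dsGFP against water to -0.14 and -0.13.

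Pools of a group differed in a shared manner. In the uninjected group pool 3 was the highest of its group for 27 of 31 genes (42.4% of all genes). In the water group it was pool 3 for 22 of 31 genes (40.7% of all genes), and in the dsGFP group pool 1 for 20 of 31 (37.0% of all genes). The lowest pool was uninjected 1 for 19 genes (32.7% of all genes), water 1 for 21 (38.1%) and dsGFP 2 for 25 (36.8%).

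A few genes ran the other way. Sdha, Atp5a1 and Atp5b were lowest in uninjected 3, in water 3 and in dsGFP 1, the pools in which most members were highest. Atp5g2 did the same in uninjected 3 and dsGFP 1, Atp5d in water 3 alone and Uqcrfs1 in dsGFP 1 alone. Being lowest in these pools was common, at 42.4% of all genes in uninjected 3, 35.3% in water 3 and 33.8% in dsGFP 1. Sdha and Atp5b carry the catalytic sites of their complexes, and Atp5a1 alternates with Atp5b around the head. Whether these roles bear on the differences between pools was not tested. Of the 31 complex I genes, 30 were highest in uninjected 3, 27 in water 3 and 27 in dsGFP 1, and 1 was lowest in each of these pools.

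**Figure D3:**
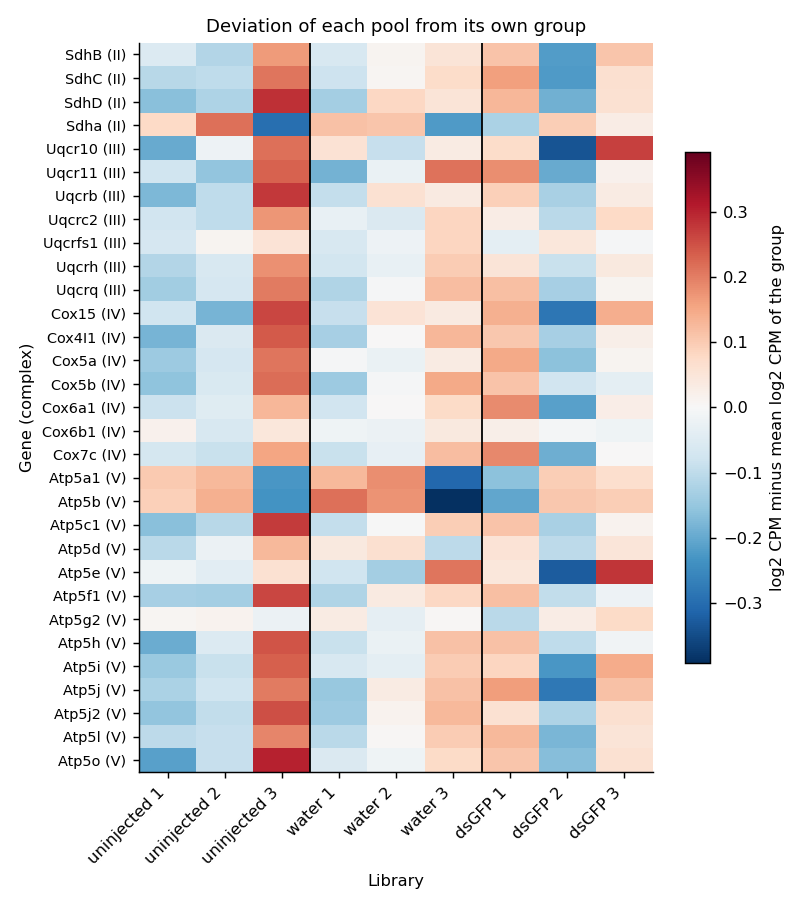
Deviation of each pool from its own group, as log2 CPM minus the group's mean log2 CPM (colour scale), for the 31 genes (rows, complex in brackets) in 9 libraries (columns, black lines between groups). Most rows are red in uninjected 3 and water 3, and the rows of Sdha, Atp5a1 and Atp5b are blue there.

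Ratios between subunits of the same complex show this without regard to scaling; the pairs were chosen after the values were seen and carry no test. The ratio of Atp5a1 to Atp5c1 counts was 2.547, 2.498 and 1.498 uninjected, 2.48, 2.41 and 1.61 with water and 1.82, 2.57 and 2.28 with dsGFP. For Atp5b to Atp5c1 it was 2.21, 2.20 and 1.30 uninjected, 2.20, 2.00 and 1.26 with water and 1.52, 2.22 and 2.00 with dsGFP. The alpha and beta genes moved together against the gamma gene, with Atp5b to Atp5a1 between 0.786 and 0.888 in all 9 libraries.

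By contrast, the peripheral stalk gene Atp5h kept a ratio of 0.670 to 0.720 to Atp5c1 in all 9 libraries. In complex II the ratio of Sdha to SdhB was 0.921, 1.06 and 0.611 uninjected, 0.816, 0.772 and 0.599 with water and 0.721, 1.06 and 0.804 with dsGFP. The group means of the Atp5a1 to Atp5c1 ratio, 2.18 ± 0.592 uninjected, 2.17 ± 0.484 with water and 2.22 ± 0.377 with dsGFP (SD, n = 3 each), differed by much less than the pools within a group.

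**Figure D4:**
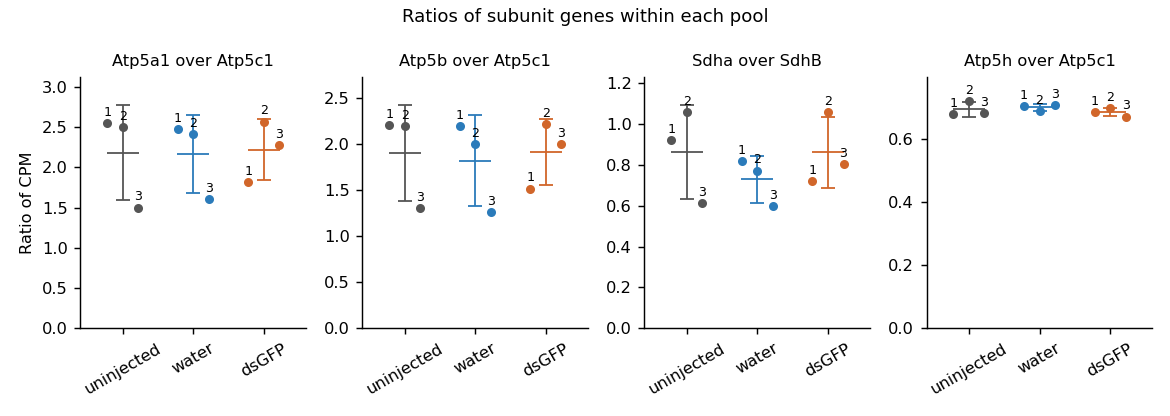
Ratio of CPM (vertical axis, from 0) of 4 pairs of subunit genes in each pool (numbered points), with marks for the group mean and bars for the SD (n = 3). Atp5a1 and Atp5b over Atp5c1 and Sdha over SdhB are lowest in uninjected 3, water 3 and dsGFP 1, whereas Atp5h over Atp5c1 stays between 0.670 and 0.720.

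Other measures moved with the pools. The summed CPM of all 31 genes was 5711, 5851 and 6202 uninjected, 5548, 5687 and 5521 with water and 5403, 5241 and 5595 with dsGFP. The cuticle list summed to 11913, 6413 and 305 CPM, to 22180, 1535 and 12474 CPM and to 23898, 38232 and 5002 CPM in the same order. In each group the pool with the least cuticle RNA had the largest sum over the 31 genes, a sum to which a few abundant genes such as Atp5g2 contribute most. By single genes this held in the uninjected group alone, since most members were highest in water 3 and dsGFP 1, which did not have the least cuticle RNA. Muscle genes summed to 883, 816 and 772 CPM, to 931, 850 and 779 CPM and to 858, 918 and 853 CPM, and nervous system genes to 301, 394 and 302 CPM, to 295, 325 and 283 CPM and to 221, 242 and 286 CPM. The part of these measures in the differences between pools and groups was not tested.

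The spread between pools lay close to that of other genes at these levels. The median coefficient of variation of the 31 genes was 13.2% uninjected, 6.61% with water and 9.52% with dsGFP. For the 6977 genes of the same CPM range it was 12.8%, 8.59% and 9.10%. Cox6b1 (1.48% with dsGFP) and Atp5g2 (1.33% uninjected) had the smallest single values, and Atp5b the largest, at 21.8% with water.

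Several members overlap a neighbouring gene, and here the column of counts matters. The unstranded count sets aside a read pair that lies over 2 genes. Where the 2 genes lie on opposite strands, each strand column assigns such a pair to one of them by its orientation. Orientation carries no strand in these libraries, since 49.95 to 50.13% of strand-assigned pairs fell in the first column. The sum of both columns therefore credits a shared pair to both genes and is an upper limit for each. The sum exceeded the unstranded count by more than 1.2 times for 6 of 31 members (19.4%) and for 13.8% of all genes tested. These were Atp5e (10.6 times), Uqcr10 (2.19 times), Cox5a (1.52 times), Cox6b1 (1.37 times), SdhC (1.27 times) and SdhD (1.26 times).

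For Atp5e the pairs set aside over all libraries numbered 57201, and its neighbour Th1 lacked 57189, so nearly all lay over both genes. Th1 encodes, by its Drosophila name, a subunit of the negative elongation factor. Its own unstranded level was 23.5 to 31.1 CPM. The unstranded level of Atp5e thus rests on 450 to 849 pairs per library, against 4614 to 10142 in the strand sum.

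Counted as the strand sum, Atp5e had 172, 165 and 200 CPM uninjected, 155, 185 and 203 CPM with water and 176, 145 and 163 CPM with dsGFP, and all groups overlapped. Its log2 fold change turned from 0.37 to -0.15 for dsGFP against uninjected (SE 0.13, adjusted p = 0.557) and shrank from 0.38 to 0.02 for water against uninjected (SE 0.13, adjusted p = 0.999). With this count 31 of 31 members were lower with dsGFP than uninjected, and all 31 confidence intervals lay within 1.5-fold in each comparison. SdhC moved less, from -0.30 to -0.24 for dsGFP against uninjected (SE 0.12, adjusted p = 0.318), and Cox5a from -0.26 to -0.28 (SE 0.12, adjusted p = 0.265). The dsGFP and uninjected pools of SdhC, apart in the unstranded count, overlapped in the strand sum.

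**Figure D5:**
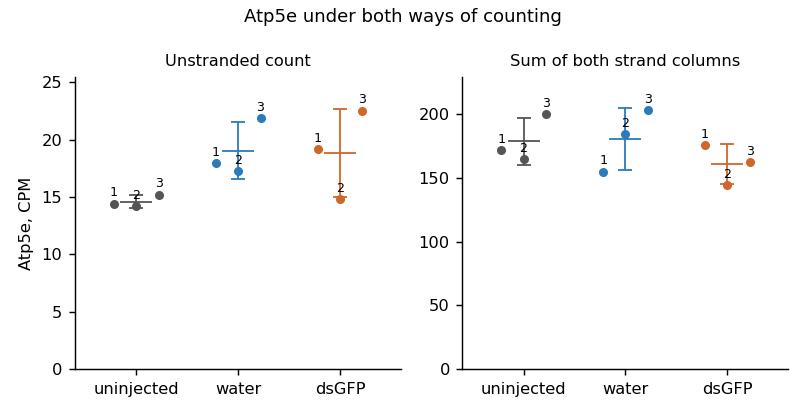
Level of Atp5e in CPM (vertical axis, from 0) by the unstranded count (left) and by the sum of both strand columns (right), in each pool (numbered points) with marks for the group mean and bars for the SD (n = 3). On the left the uninjected pools lie at 14.2 to 15.2 CPM, and on the right the groups overlap between 145 and 203 CPM.

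Other genes of the pathway were counted from lists matched by symbol, and the complex I genes also moved together between pools. Of 31 complex I genes 27 were lower with dsGFP than with water, 22 lower with water than uninjected and 30 lower with dsGFP than uninjected, with medians of -0.09, -0.05 and -0.15 on the log2 scale, and 0 were called. Cyc1, the cytochrome c1 of complex III, whose symbol lies outside the rule, was at -0.25 on the log2 scale for dsGFP against uninjected (SE 0.13, adjusted p = 0.330). Of 4 mitochondrial ribosome genes, 2 import genes and 1 citric acid cycle gene (Ogdh), all had lower values with dsGFP than uninjected (medians -0.19, -0.11 and -0.06), and 0 were called. Ogdh, which encodes the oxoglutarate dehydrogenase, was lowest in uninjected 3 (88.8 CPM, against 120 and 152), in water 3 (92.7, against 123 and 116) and in dsGFP 1 (101, against 127 and 118), as Sdha was.

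Tissue marker lists had larger median differences between dsGFP and uninjected pupae than the -0.16 of the 31 genes, given here as a description. Of 3 muscle genes 2 were lower, with a median log2 fold change of -1.13 (-0.44 for water against uninjected), and 1 was called lower. Both medians are the values of the single gene Tm2, which was not called (adjusted p = 0.121 by the quasi-likelihood test for dsGFP against uninjected). The gene called was Zasp66, a sarcomere component in Drosophila, with 13.5, 26.5 and 17.8 CPM uninjected, 9.56, 9.48 and 7.53 CPM with water and 7.51, 5.73 and 8.48 CPM with dsGFP (log2 fold change -1.41, adjusted p = 0.0111). Every injected pool was below every uninjected pool. Tm1, the most abundant, was higher by 0.17 and was not called. The summed muscle CPM, most of it from Tm1, overlapped between dsGFP pools (853 to 918 CPM) and uninjected pools (772 to 883 CPM). Of 16 nervous system genes tested 14 were lower (median -0.37) and 1 was called lower. Of 27 cuticle genes tested 18 were higher and 9 lower (median 0.77), and 3 were called lower and 0 higher. Of all genes 4.11% were called lower and 0.437% higher. The part of these tissue markers in the values of the 31 genes was not tested.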

How the data were processed

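Per the labels, libraries were made from poly(A) RNA without a strand-marking step and read as 150 bp pairs. For each library the authors deposited raw counts of read pairs per gene, unstranded and by strand. The submitters' processing notes name STAR 2.6.1b. No source used here names the genome build, and coordinates are left out. Of 15430 rows, 12 name no gene and were left out (0.0518 to 0.0608% of counts). Neighbouring genes were read from a RefSeq gene table of assembly Nvit_psr_1.1.

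The unstranded counts were filtered with edgeR's filterByExpr (minimum count 10, minimum total 15), scaled by TMM and tested with edgeR 4.0.16 (glmQLFit robust, glmQLFTest) in R 4.3.3, with all 9 libraries in 1 fit of 3 groups. A gene was called at a p under 0.05 after Benjamini-Hochberg adjustment over all 11665 genes. The fit was tested on simulated data. Replicate libraries differed by far more than counting noise.

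The members and lists were chosen with earlier results of these data known. Members given in full were those of the 3 smallest p per comparison and of highest and lowest CPM per complex; others were chosen after their values were seen. Alternatives were other scaling, filters and fits, DESeq2 1.42.0, a replicate block, each library left out, and the strand sum, which was added after the data were seen. Planned levels per length and promoter searches were not made, since lengths and sequences were not used here.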

Additional observations from a re-analysis of the deposited data

How the results depend on the processing

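Under every alternative run, 0 of the 31 genes were called in each pairwise comparison and in the test across the 3 groups. Whether the replicate numbers pair the libraries was not settled. Correlations of deviations ran from -0.33 to 0.43 for same-numbered libraries and from -0.64 to 0.59 for differently numbered ones. These deviations are from means of 3 libraries, so the correlations cannot decide it. With the replicate block 0 members were called in every comparison. Over all genes, the 531 called for dsGFP against uninjected became 932 with DESeq2, 255 with only the 2 groups compared, 539 with the replicate block, 134 without dsGFP 2, 244 without dsGFP 1 and 295 without uninjected 2. For water against uninjected the 1 gene called became 45 with DESeq2 and 7 without uninjected 1, and for dsGFP against water 0 became 6 with DESeq2. The 238 genes of the test across groups became 678 with DESeq2, and 0 to 384 with 1 library left out. Scaling by the gene total alone moved the median of all genes for dsGFP against uninjected from 0.01 to -0.11 and that of the members to -0.27; relative to all genes the members lay at -0.16 in the main fit and -0.17 there. With the gene total alone, 11 members lay within 1.5-fold for dsGFP against uninjected, the medians of complexes II, III and V were -0.25, -0.29 and -0.27 and the log2 ratios of their sums -0.26, -0.32 and -0.24; for dsGFP against water the medians of complexes II and V were -0.13 and -0.15 and the ratios -0.11 and -0.11. With upper-quartile factors the median of complex V for dsGFP against uninjected was -0.21. With 1 library left out, the median of complex II for dsGFP against water ran from -0.13 to 0.027 and that of complex IV from -0.14 to 0.034, both positive without dsGFP 2. For water against uninjected the medians of complexes II and V ran from -0.20 to -0.049 and from -0.13 to -0.010, nearest to 0 without uninjected 3. For dsGFP against uninjected the median of complex V ran from -0.23 to -0.094 and that of complex IV from -0.23 to -0.028, and 19 to 29 members lay within 1.5-fold, fewest without uninjected 2. The cause was not tested.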
